A study of Nothobranchius furzeri with 20 samples.

Results

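In muscle of Nothobranchius furzeri, the turquoise killifish, 150 of 26739 genes in the count table made up the set described here: genes that were lower with swimming at 9 weeks of age. The level of a gene was its CPM, the count divided by the total of its own library and multiplied by 1000000. Genes were chosen by their CPM in the 9-week fish: each of the 5 libraries of fish that swam lay below each of the 5 libraries of fish that did not, and the average of the fish that did not swim was 5 CPM or more. Of 7802 genes at that level, 203 (2.6%) had such groups without overlap, lower with swimming. The choice left out 4 genes whose 10 libraries of 27-week fish all lay below all 10 libraries of 9-week fish, and of the 199 that remained the 150 with the largest ratio of means were kept. The difference between the 9-week groups is therefore a description of how the genes were picked, nothing is read from a test of it, and the results concern the 27-week fish, which the choice used only for those 4 genes.

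The RNA came from male fish of the strain MZM-04/10p. It was measured in 10 libraries of fish aged 27 weeks labelled swim-tunnel (27-week swim), 5 of fish aged 9 weeks with the same label (9-week swim) and 5 of fish aged 9 weeks with no perturbation (9-week none). In a swim tunnel a fish is made to swim in flowing water. The labels gave neither the amount of swimming nor the animal behind a library, so p-values measure the spread between these samples only, which may be technical. Fish of 27 weeks without swimming were not analysed here, so age and swimming differ together between 27-week swim and 9-week none, and each group has its own run of sample codes, so any batch tied to those codes and the groups cannot be told apart.

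Exercising muscle adjusts transcripts of energy supply, contraction, calcium handling and tissue repair, and part of these adjustments is transient after a bout of activity while another part builds up with training. Ageing muscle of vertebrates loses mass and shifts its metabolism, and killifish are used to follow this within a short lifespan. Which of these functions the 150 genes serve could not be read from the data: the tables name genes by identifiers only, and 0 of the 26739 identifiers matched the 38438 genes of the reference table of assembly NfurGRZ-RIMD1. No gene of a pathway or cell type list could be found, the muscle label could not be checked against marker genes, and no role is given to any gene below. In bulk tissue a lower level from fewer cells of a type and one from less RNA per cell cannot be told apart.

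At 9 weeks the 150 genes stood at a median of 58.1% of their none mean in the swim fish, with a range between 19.9% and 71.9%. The none mean was at least 2-fold the swim mean in 48 genes, at least 3-fold in 12 and at least 4-fold in 6. Levels in the none fish spanned 5.02 to 1420 CPM with a median of 29.2 CPM, 32 genes were at 100 CPM or more and 26 were under 10 CPM. All 150 genes passed the filter on low counts, and none had a count of 0 in any library. Together they held 0.654%, 0.793% and 0.947% of all counts in the lowest, median and highest 27-week swim library. They held 0.577%, 0.632%, 0.496%, 0.723% and 0.719% in the 9-week swim libraries 1 to 5, against 0.992%, 1.09%, 1.14%, 1.16% and 1.29% in the 9-week none libraries 1 to 5. The 27-week range thus overlapped that of the 9-week swim fish and stayed below that of the none fish. The overlap rested on the most abundant gene, Nfu_g_1_008613. Without it the share was 0.6178% to 0.8620% in 27-week swim, 0.4190% to 0.6150% in 9-week swim and 0.8621% to 1.139% in 9-week none. The 27-week range then lay just above that of 9-week swim and reached almost to that of none. Genes were picked for being low in these 9-week swim libraries and high in these none libraries. This favours a 27-week share between theirs, so these ranges are descriptions.

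**Figure D1:**
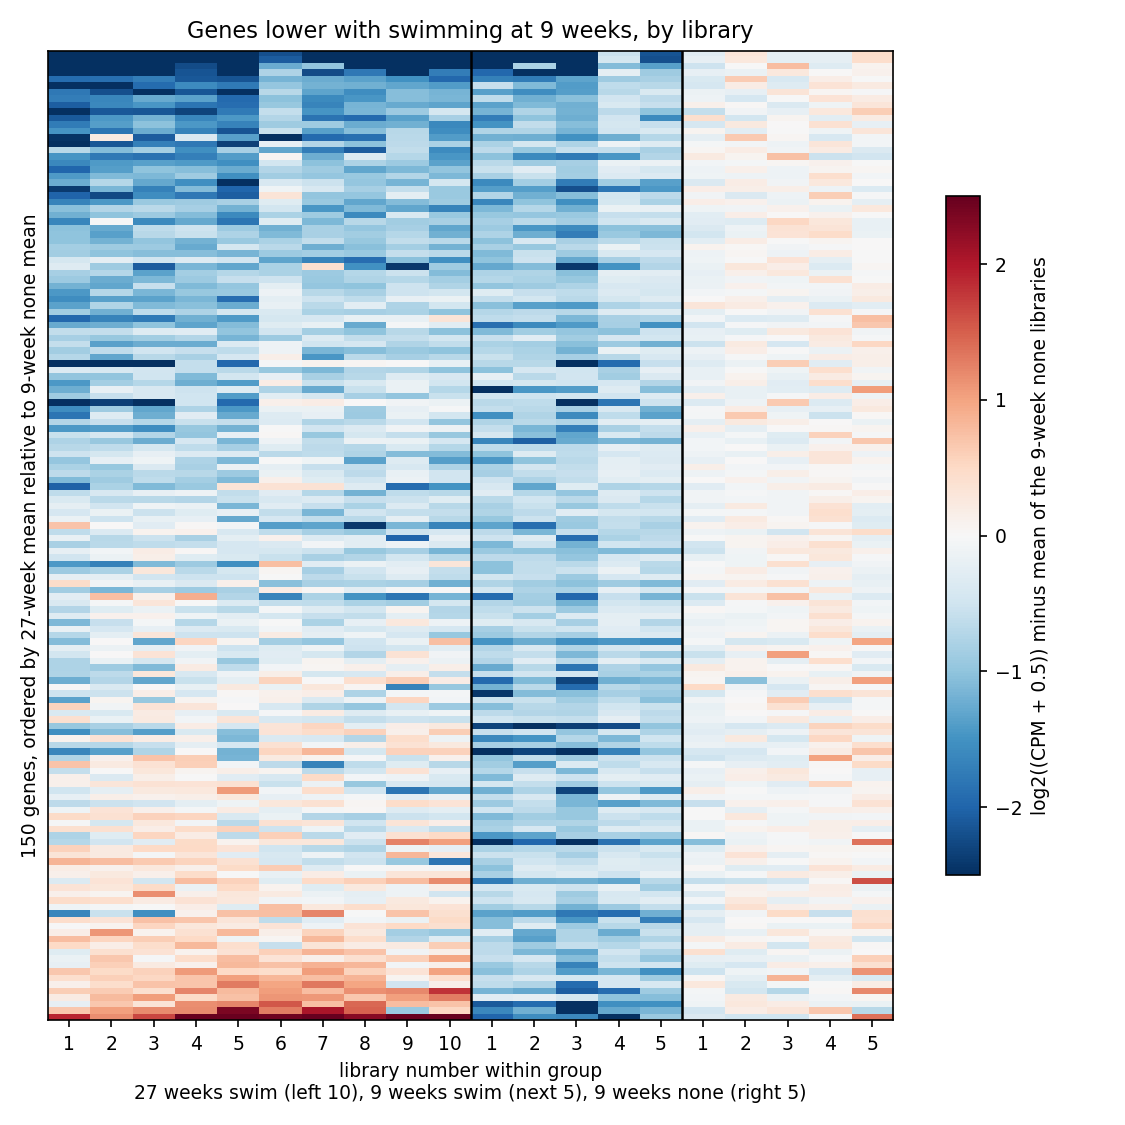
Each row is 1 of the 150 genes and each column 1 library, coloured by log2(CPM + 0.5) minus the mean of the 9-week none libraries, with colours capped at 2.5 in either direction; rows run by the 27-week mean relative to the none mean. The 9-week swim block is blue throughout because the genes were chosen so, while the 27-week swim block runs through blue, pale and red down the page.

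The last genes inside the limit on the ratio and the first outside it differed little. Nfu_g_1_008613, the last inside, had a none mean 1.39 times its swim mean, and Nfu_g_1_019803, the first outside, also 1.39 times. Nfu_g_1_019803 averaged 7.38 CPM in 27-week swim, 5.60 CPM in 9-week swim and 7.78 CPM in 9-week none. Nfu_g_1_011625 (9783 bases), next to last inside, averaged 28.2 CPM in 27-week swim, 18.0 CPM in 9-week swim and 25.1 CPM in 9-week none. The next gene outside, Nfu_g_1_019856, averaged 5.80 CPM in 27-week swim, 5.12 CPM in 9-week swim and 7.10 CPM in 9-week none.

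How firmly the 9-week difference rests on single libraries was described by choosing 150 genes again without each 9-week library in turn and looking at the library left out. The left-out swim library lay below all 5 none libraries in 85.3%, 92.7%, 92.7%, 43.3% and 66.7% of the genes for swim libraries 1 to 5, against 32.2%, 38.9%, 41.3%, 12.2% and 15.2% of all genes of at least 5 CPM. The left-out none library lay above all 5 swim libraries in 64.0%, 92.0%, 88.0%, 88.0% and 88.0% of the genes for none libraries 1 to 5, against 9.92%, 17.6%, 16.0%, 44.4% and 15.1% of all genes. On the CPM scale swim library 4 was thus the one whose level followed its group least. Without it 622 genes met the rule in place of 199, and 65 of the 150 genes chosen then were shared with the set. Over all genes of at least 5 CPM its median log2 difference from the none mean was 0.11, the highest of its group. Less that value, the median of the set was -0.64 in swim library 4, within its group's -0.78 to -0.57. Swim library 4 took part in the choice of the set, which favours such a value, so it is a description. The part of the offset of 0.11 in the low share was not tested. Without swim library 5 and none library 1 the rule was met by 336 and 376 genes, with 100 and 95 genes shared. The libraries of the other group took part in each of these choices. This favours a left-out library lying beyond them, so the shares are descriptions.

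**Figure D2:**
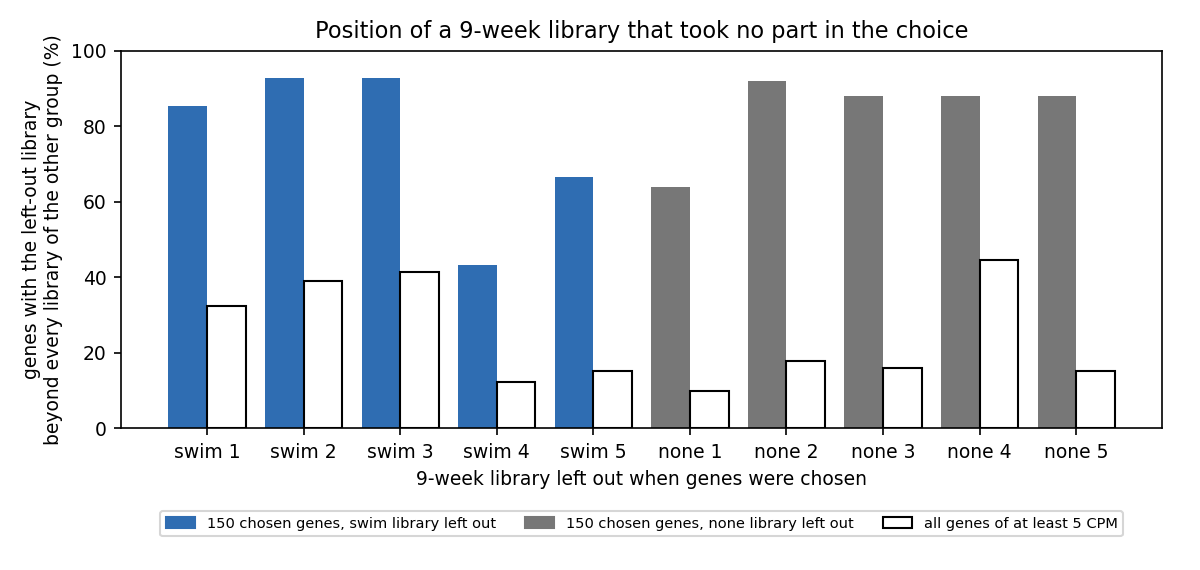
For each 9-week library left out while genes were chosen, the filled bar is the percentage of the 150 genes so chosen in which that library lay beyond every library of the other group, and the open bar is the same for all genes of at least 5 CPM. The filled bars run between 43.3% (swim library 4) and 92.7% (swim libraries 2 and 3), and each is taller than its open bar. The libraries of the other group took part in the choice, which favours taller filled bars.

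By group means, the 27-week swim fish neither kept the change in all 150 genes nor lost it in all. In 45 of the 150 genes their mean was at or below the mean of the 9-week swim fish, in 74 it lay between the means of the 9-week swim and none fish, and in 31 it was above the none mean. Genes were picked for 9-week means that lay apart, which favours a 27-week mean between them, so these counts are descriptions. Median levels of the group means for the 45 genes at or below were 22 CPM in 27-week swim, 26.4 CPM in 9-week swim and 48.9 CPM in 9-week none. For the 74 genes between they were 17.5 CPM in 27-week swim, 11.9 CPM in 9-week swim and 26.6 CPM in 9-week none. For the 31 genes above they were 26.8 CPM in 27-week swim, 11.0 CPM in 9-week swim and 18.1 CPM in 9-week none.

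Over the 150 genes the median 27-week level was 72.2% of the none mean, with quartiles at 56.8% and 95.2%. The median log2 ratio was -0.47 for 27-week swim to 9-week none, where it was -0.13 over all genes of at least 5 CPM. It was 0.30 for 27-week swim to 9-week swim, where it was -0.08 over all such genes. The 27-week mean was below the none mean in 79.3% of the set, beside 59.2% of all genes of at least 5 CPM. It was above the 9-week swim mean in 70.0% of the set, beside 44.3% of all such genes. Both comparisons share 9-week libraries with the choice of the genes, which took genes high in these none libraries and low in these swim libraries, so these shares are descriptions.

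**Figure D3:**
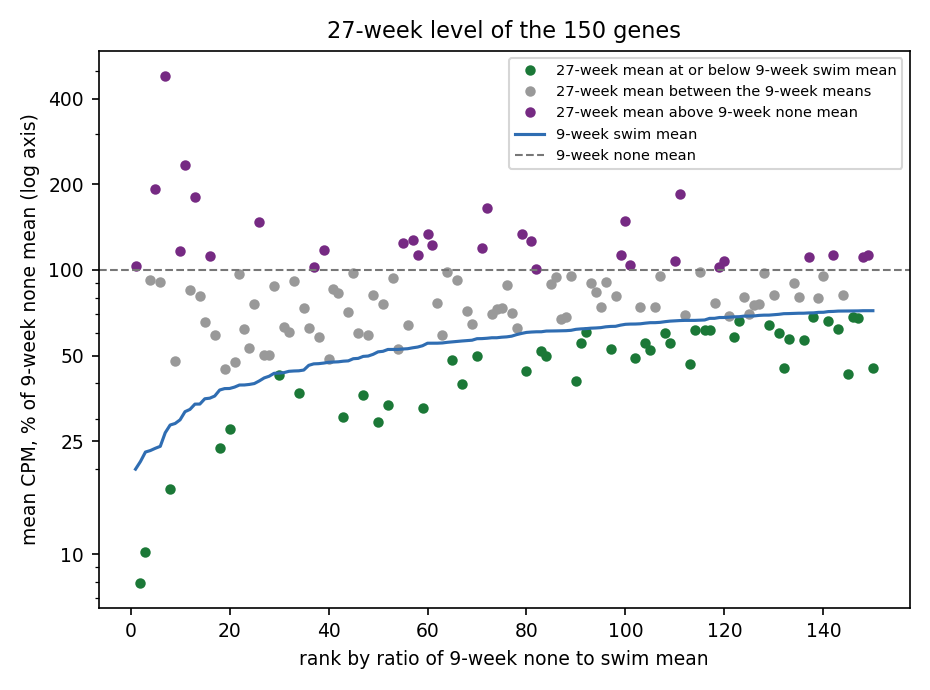
Genes are ordered by the ratio of 9-week none to 9-week swim mean (largest at the left), and points give the 27-week swim mean in percent of the none mean on a log axis; the blue line is the 9-week swim mean and the dashed line the none mean. The 45 green points lie at or below the line of the 9-week swim mean, the 74 grey points between the lines and the 31 purple points above the none mean.

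In 43 genes (28.7%) all 10 libraries of 27-week swim fish lay below the lowest none library, where 16.2% of all genes of at least 5 CPM did so. In 20 genes (13.3%) all 10 lay above the highest 9-week swim library, where 2.1% of all such genes did so. Of the 43 genes, 36 were among the 45 at or below the 9-week swim mean and 7 among the 74 between the means. Of the 20 genes, 17 were among the 31 above the none mean. The choice took genes with low 9-week swim and high none libraries. It favours both positions even where no level differs between 27 and 9 weeks. The classes rest on the same levels, so these counts and shares are descriptions.

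Tests across all 16653 genes that passed the low-count filter (quasi-likelihood test of edgeR, p adjusted by Benjamini and Hochberg, threshold 0.05) gave the following for the set. Both 27-week comparisons reuse the 9-week libraries that chose the genes, and picking genes high in these none libraries and low in these swim libraries favours calls below none and above 9-week swim even where no level differs between 27 and 9 weeks. The shares below are set, as a description, beside those of all tested genes, which unlike the set include genes under 5 CPM in none. How much of the excess comes from the choice or from this difference in level was not tested. In 27-week swim against 9-week none, 65 of the 150 genes (43.3%) were lower, beside 18.9% of all tested genes, and 6 (4%) were higher, beside 21.2%. In 27-week swim against 9-week swim, 51 genes (34%) were higher, beside 14.8% of all tested genes, and 6 (4%) were lower, beside 16.8%; the count of lower genes was 3 to 11 when single libraries of the 3 groups were left out. The genes called lower than none comprised 42 of the 45 at or below the 9-week swim mean and 23 of the 74 between the means. The genes called higher than 9-week swim comprised 30 of the 31 above the none mean and 21 of the 74 between. These classes were set by levels of the same libraries that the calls compare, so this overlap was largely built in. No call in any of the 3 comparisons was made for 36 genes. For 9-week swim against none, the contrast that chose the genes, 8 of them (5.33%) were called lower, beside 0.0721% of all tested genes; DESeq2 called 72, and edgeR without single libraries 0 (none library 3) to 12 (swim library 4). The choice itself brings about such calls, so nothing is read from this count.

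The genes described singly below were chosen by the same 9-week libraries that their p-values compare with 27-week swim. This choice favours falls relative to none and rises relative to 9-week swim. Some genes were also named for extreme 27-week levels. Their fold changes and p-values are therefore descriptions too. The largest ratio at 9 weeks belonged to Nfu_g_1_021198 (2290 bases). It stood at 182, 337 and 703 CPM in the lowest, median and highest 27-week swim library. In 9-week swim it had 41.6, 75.2, 30.5, 81.6 and 117.16 CPM, against 142.35, 265, 285, 281 and 763 CPM in 9-week none. Every 27-week library lay above every 9-week swim library and within the range of the none libraries, of which library 5 was far above the others. The gene rose in 27-week swim relative to 9-week swim (log2 fold change 2.41, SE 0.46, edgeR adjusted p = 0.000717), and its log2 fold change to 9-week none was 0.11 (SE 0.41, edgeR adjusted p = 0.859).

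Nfu_g_1_000224 (2195 bases) and Nfu_g_1_017865 (5107 bases) came next by ratio and had the lowest 27-week level relative to none. Nfu_g_1_000224 had 1.85, 2.90 and 10.0 CPM in the lowest, median and highest 27-week swim library. It had 3.69, 3.46, 1.82, 32.6 and 10.3 CPM in 9-week swim, against 39.2, 58.6, 40.2, 40.7 and 65.7 CPM in 9-week none. All 10 libraries of 27-week fish lay below all none libraries, and swim library 4 came close to the none range. The gene fell in 27-week swim relative to 9-week none (log2 fold change -3.59, SE 0.51, edgeR adjusted p = 3.15e-05). Relative to 9-week swim the log2 fold change was -1.30 (SE 0.51, edgeR adjusted p = 0.0586). DESeq2 on all libraries called it lower (adjusted p = 0.033). With edgeR it passed the threshold when 9-week swim library 1, 2 or 3 or 27-week library 6 or 10 was left out. Adjusted p was then between 0.0194 and 0.0445. Nfu_g_1_017865 had 4.21, 9.25 and 25.4 CPM in the lowest, median and highest 27-week library. Its 9-week swim libraries had 8.77, 11.2, 3.95, 80.7 and 23.6 CPM, against 95.0, 131, 92.0, 93.2 and 149 CPM in 9-week none, again with swim library 4 highest of its group. It fell in 27-week swim relative to none as well (log2 fold change -3.22, SE 0.51, edgeR adjusted p = 8.72e-05).

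Levels of these genes kept a narrow ratio to each other, a pair noticed after their values were seen. The CPM of Nfu_g_1_017865 over that of Nfu_g_1_000224 was between 2.27 and 3.78 in 27-week swim, between 2.17 and 3.24 in 9-week swim and between 2.23 and 2.42 in 9-week none. Without a genome it could not be examined whether they share reads or a locus.

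Nfu_g_1_021472 (1608 bases) had 58.4, 158 and 321 CPM in the lowest, median and highest 27-week swim library. It had 16.9, 35.9, 19.4, 55.6 and 92.1 CPM in 9-week swim, against 135.9, 135, 173, 211 and 295 CPM in 9-week none. The 27-week libraries overlapped both 9-week groups, with libraries 1, 2, 3 and 5 at 107 CPM or less and library 4 and libraries 6 to 10 above them. The gene rose relative to 9-week swim (log2 fold change 2.08, SE 0.52, edgeR adjusted p = 0.00497), a call that ended without 27-week libraries 6 to 10 (log2 fold change 0.92, adjusted p = 0.0849). Relative to none its log2 fold change was -0.01 (SE 0.47, edgeR adjusted p = 0.989), but -1.18 without 27-week libraries 6 to 10, which passed the threshold (adjusted p = 0.0285).

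Nfu_g_1_018732 (1231 bases) had 9.34, 18.7 and 32.9 CPM in the lowest, median and highest 27-week swim library. It had 2.13, 2.5, 1.34, 3.43 and 3.49 CPM in 9-week swim, against 9.96, 13.1, 12.4, 9.68 and 9.56 CPM in 9-week none. All 27-week libraries lay above the 9-week swim libraries, and library 1 was the only one below the none range. The gene rose relative to 9-week none (log2 fold change 0.97, SE 0.29, edgeR adjusted p = 0.0119), a call that ended without 27-week libraries 6 to 10 (log2 fold change 0.47, adjusted p = 0.143).

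**Figure D4:**
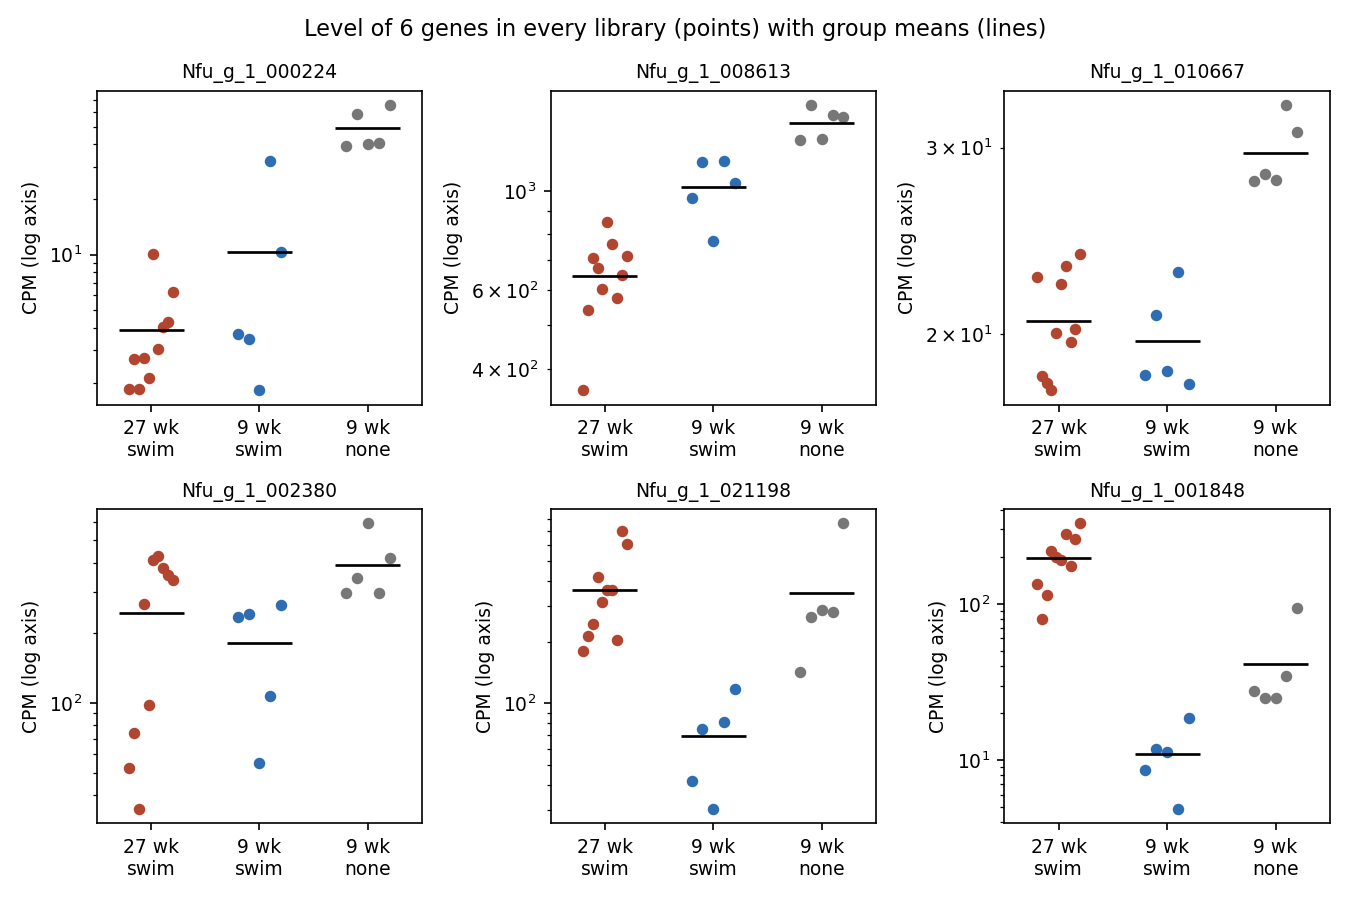
CPM of 6 of the genes on log axes, 1 point per library and a line at each group mean, for 27-week swim (10 libraries), 9-week swim (5) and 9-week none (5). The 27-week points of Nfu_g_1_000224 and Nfu_g_1_008613 lie below all none points, those of Nfu_g_1_001848 at 79.7 CPM or more lie above all 9-week swim points, and those of Nfu_g_1_002380 span 34.9 to 429 CPM.

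Nfu_g_1_008613 (2784 bases) was the most abundant gene of the set, at 1420 ± 114 CPM in 9-week none (SD, n = 5), which per kilobase of its length was 510 CPM. It had 358, 661 and 851 CPM in the lowest, median and highest 27-week swim library. It had 965, 1159, 773, 1167 and 1043 CPM in 9-week swim, against 1299, 1557, 1305, 1476 and 1464 CPM in 9-week none. All 27-week libraries lay below all none libraries and all of them except library 6, at 851 CPM, below all 9-week swim libraries. The gene fell in 27-week swim relative to both 9-week groups, with a log2 fold change of -1.12 to none (SE 0.19, edgeR adjusted p = 0.000134) and of -0.67 to 9-week swim (SE 0.19, edgeR adjusted p = 0.0106).

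Nfu_g_1_006668 (5088 bases), second in abundance in none fish, had 221 to 337 CPM in 27-week libraries 1 to 5 and 467 to 643 CPM in libraries 6 to 10. It had 427, 291, 198, 371 and 431 CPM in 9-week swim, against 709, 553, 653, 658 and 676 CPM in 9-week none. Neither 27-week comparison passed the threshold (edgeR adjusted p = 0.152 to none and 0.429 to 9-week swim), while without libraries 6 to 10 the gene was lower than in none (log2 fold change -1.54, edgeR adjusted p = 2.55e-06). Against 9-week swim the calls went opposite ways, lower without libraries 6 to 10 (log2 fold change -0.63, edgeR adjusted p = 0.00706) and higher without libraries 1 to 5 (log2 fold change 0.91, adjusted p = 0.00085).

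Nfu_g_1_004985 (6037 bases) averaged 215 ± 60.8 CPM in 27-week swim (SD, n = 10), 333 ± 84.7 CPM in 9-week swim (SD, n = 5) and 474 ± 23.1 CPM in 9-week none (SD, n = 5). It fell relative to none (log2 fold change -1.10, SE 0.22, edgeR adjusted p = 0.000849). Its call against 9-week swim (log2 fold change -0.60, SE 0.23, edgeR adjusted p = 0.0494) lay at the threshold. The call ended without any single one of 9-week swim libraries 2 to 5 or any none library. It also ended without any single one of 27-week libraries 1 to 5 and 10. Adjusted p was then between 0.0536 and 0.15. With 27-week libraries 1 to 5 all left out the log2 fold change was -0.18 (edgeR adjusted p = 0.423). Nfu_g_1_011746 (15655 bases) averaged 237 ± 36.8 CPM in 27-week swim, 278 ± 54.3 CPM in 9-week swim and 428 ± 70.9 CPM in 9-week none (SD, n = 10, 5 and 5). It too fell relative to none (log2 fold change -0.82, SE 0.16, edgeR adjusted p = 0.000677), with no call against 9-week swim (log2 fold change -0.22, SE 0.17, adjusted p = 0.317) unless libraries 6 to 10 were left out (log2 fold change -0.60, adjusted p = 0.00135).

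At the other end stood Nfu_g_1_001848 (4090 bases), whose 27-week mean was 481% of its none mean. It had 79.7, 196 and 327 CPM in the lowest, median and highest 27-week swim library. It had 8.64, 11.7, 11.3, 4.87 and 18.5 CPM in 9-week swim, against 27.6, 24.9, 24.9, 34.6 and 93.4 CPM in 9-week none. The 27-week libraries lay above the 9-week swim libraries throughout, and only none library 5 reached their range. The gene rose relative to none (log2 fold change 2.34, SE 0.45, edgeR adjusted p = 0.000496) and to 9-week swim (log2 fold change 4.18, SE 0.50, edgeR adjusted p = 1.34e-05).

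Nfu_g_1_005996 (4361 bases) had 8.64, 39.0 and 88.6 CPM in the lowest, median and highest 27-week swim library. It had 5.24, 7.15, 2.10, 6.76 and 7.44 CPM in 9-week swim, against 12.1, 19.3, 21.0, 27.5 and 10.4 CPM in 9-week none. Only 27-week library 9 lay below the none range. The gene rose relative to none (log2 fold change 1.25, SE 0.40, edgeR adjusted p = 0.0171), a call that ended without none library 5 (log2 fold change 1.10, adjusted p = 0.0504). Nfu_g_1_002826 (6382 bases) averaged 26.1 ± 5.67 CPM in 27-week swim (SD, n = 10), 9.32 ± 2.57 CPM in 9-week swim (SD, n = 5) and 14.0 ± 1.55 CPM in 9-week none (SD, n = 5). It rose relative to none (log2 fold change 0.92, SE 0.23, edgeR adjusted p = 0.00386), a call that ended without 27-week libraries 6 to 10 (log2 fold change 0.42, adjusted p = 0.0764).

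The genes differed widely in how far the 27-week libraries spread. The SD of log2(CPM + 0.5) had a median over the 150 genes of 0.41 in 27-week swim, 0.29 in 9-week swim and 0.24 in 9-week none. Over all genes of at least 5 CPM it was 0.35 in 27-week swim, 0.25 in 9-week swim and 0.23 in 9-week none. In the set, choosing 9-week groups without overlap favours a small spread within them. The 27-week SD spans libraries 1 to 5 and 6 to 10, which stood apart in some genes, so these SDs are descriptions. Nfu_g_1_002380 (2686 bases) had 52.2, 73.7, 34.9, 266 and 97.9 CPM in 27-week libraries 1 to 5 and 414, 429, 380, 357 and 339 CPM in libraries 6 to 10. It had 235, 242, 54.8, 107 and 264 CPM in 9-week swim, against 297, 344, 593, 297 and 421 CPM in 9-week none. Libraries 1 to 5 of the 27-week fish lay below all none libraries, and libraries 6 to 10 lay within the none range. Nfu_g_1_002271 (306 bases) showed the same pattern, with 6.12, 7.0, 2.79, 28.9 and 11.0 CPM in 27-week libraries 1 to 5 and between 38.9 and 47.0 CPM in libraries 6 to 10. Its CPM was exceeded by that of Nfu_g_1_002380 by a factor between 8.0 and 12.5 in 27-week swim, 8.71 and 9.82 in 9-week swim and 8.21 and 8.74 in 9-week none, another pair noticed after the values were seen.

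Nfu_g_1_007666 (687 bases) was scattered too. It had 9.38, 40.2 and 173 CPM in the lowest, median and highest 27-week swim library. It had 11.6, 197, 9.08, 161 and 134.1 CPM in 9-week swim, against 238, 338, 584, 275 and 364 CPM in 9-week none. All 27-week libraries lay below all none libraries, and the 9-week swim libraries split, with libraries 1 and 3 far below libraries 2, 4 and 5. The gene fell relative to none (log2 fold change -2.51, SE 0.65, edgeR adjusted p = 0.00505), a call that ended without 27-week libraries 1 to 5 (log2 fold change -1.97, adjusted p = 0.0746).

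Nfu_g_1_010667 and Nfu_g_1_001532 varied least among the 27-week libraries. Nfu_g_1_010667 (9600 bases) had 17.7, 20.2 and 23.8 CPM in the lowest, median and highest 27-week swim library. It had 18.3, 20.9, 18.5, 22.9 and 18.0 CPM in 9-week swim, against 27.9, 28.3, 28.0, 32.9 and 31.1 CPM in 9-week none. The 27-week range covered that of 9-week swim and lay below that of none. The gene fell relative to none (log2 fold change -0.50, SE 0.15, edgeR adjusted p = 0.0108), a call that ended without 27-week libraries 1 to 5 (log2 fold change -0.24, adjusted p = 0.0807). Against 9-week swim it was called lower without libraries 6 to 10 (log2 fold change -0.31, edgeR adjusted p = 0.0218) and higher without libraries 1 to 5 (0.33, adjusted p = 0.0246). Nfu_g_1_001532 (4178 bases) averaged 82.9 ± 7.19 CPM in 27-week swim (SD, n = 10), 70.9 ± 9.35 CPM in 9-week swim (SD, n = 5) and 103 ± 13.5 CPM in 9-week none (SD, n = 5), and neither 27-week comparison passed the threshold (edgeR adjusted p = 0.0687 to none and 0.254 to 9-week swim). DESeq2 called this gene lower than none (adjusted p = 0.037). So did edgeR without 27-week library 6 or 7 (adjusted p = 0.0434 and 0.0437). Without libraries 6 to 10 it was called lower than none (log2 fold change -0.56, edgeR adjusted p = 0.000442). Without libraries 1 to 5 it was called higher than 9-week swim (0.40, edgeR adjusted p = 0.0156).

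The 27-week libraries fell into libraries 1 to 5 and 6 to 10, whose labels are alike, a split made after the values had been seen. On the CPM scale used above, the median log2 ratio of the set to none was -0.45 without libraries 1 to 5 and -0.52 without libraries 6 to 10, and to 9-week swim 0.29 and 0.28, close to the values with all libraries. The genes at or below the 9-week swim mean, between the means and above the none mean numbered 47, 71 and 32 without libraries 1 to 5, and 57, 58 and 35 without libraries 6 to 10. A dependence on these libraries appeared once levels were set against those of all genes. The median log2 difference of the 150 genes from their none mean, less that of all genes of at least 5 CPM, was between -0.63 and -0.35 in 27-week libraries 1 to 5 and between -0.17 and -0.11 in libraries 6 to 10. It was between -0.78 and -0.57 in 9-week swim and between -0.14 and 0.04 in 9-week none. Group means of this value were -0.32 ± 0.20 in 27-week swim (SD, n = 10), -0.68 ± 0.09 in 9-week swim (SD, n = 5) and -0.03 ± 0.08 in 9-week none (SD, n = 5). The 27-week mean pools the separate ranges of libraries 1 to 5 and 6 to 10. The 9-week libraries chose the genes and the 27-week libraries hardly did, so these values are descriptions and not a like comparison. The TMM scaling factors, which set libraries to a common level of most genes, were 1.11 to 1.24 in 27-week libraries 1 to 5 and 0.78 to 0.98 in libraries 6 to 10. On TMM-scaled CPM, an alternative chosen after seeing the data, the genes at or below the 9-week swim mean, between the means and above the none mean numbered 48, 71 and 31 with all 27-week libraries. They numbered 26, 74 and 50 without libraries 1 to 5, and 72, 53 and 25 without libraries 6 to 10. The part of scaling, batch or biology in this split was not tested.

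**Figure D5:**
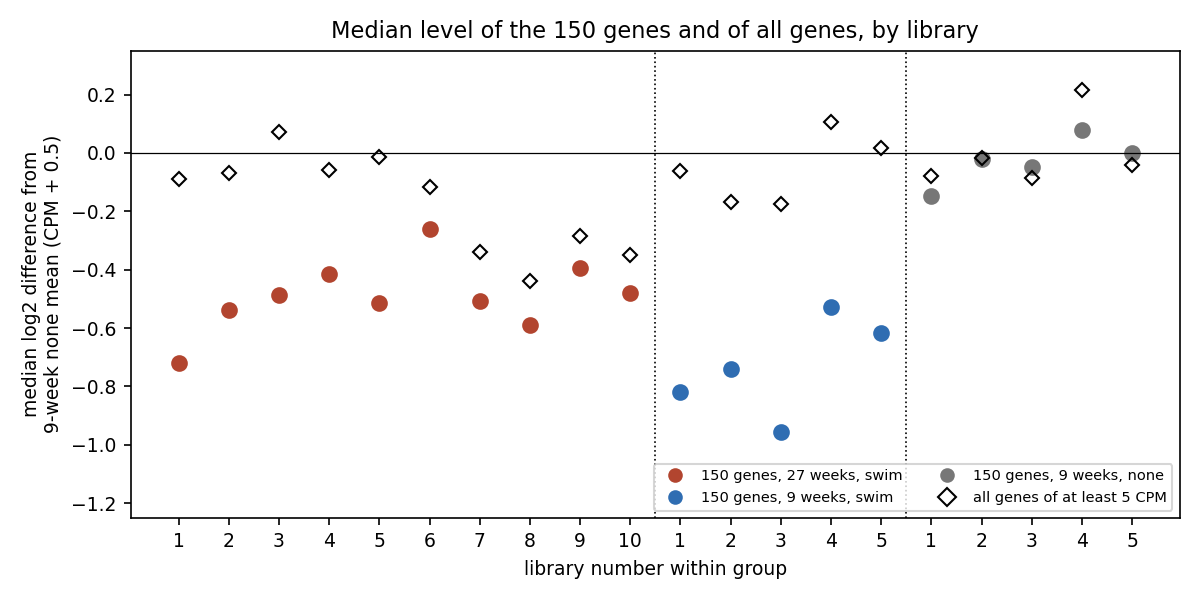
For each library, the filled point is the median over the 150 genes of the log2 difference from the 9-week none mean, and the open diamond the same over all genes of at least 5 CPM. The filled points of 27-week swim lie between -0.72 and -0.26, those of 9-week swim between -0.96 and -0.53 and those of 9-week none between -0.15 and 0.08; the distance between point and diamond is larger in 27-week libraries 1 to 5 than in libraries 6 to 10.

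Calls, which rest on TMM scaling, moved with the same libraries. In 27-week swim against 9-week none, 53 genes of the set were lower and 15 higher without libraries 1 to 5 (edgeR, adjusted p under 0.05). Of all 16073 genes tested then, 2319 were lower and 1929 higher. Without libraries 6 to 10, 98 genes of the set were lower and 3 higher. Of all 16469 genes tested then, 4775 were lower and 4463 higher. Calls of lower genes were thus more numerous without libraries 6 to 10 among all genes too. Calls of higher genes were fewer in the set and more numerous among all genes. Choosing genes high in these none libraries favours calls below none over calls above it, so these counts are descriptions. In 27-week swim against 9-week swim, 70 genes of the set were higher and 1 lower without libraries 1 to 5. Of all genes tested then, 1599 were higher and 2166 lower. Without libraries 6 to 10, 46 genes of the set were higher and 46 lower, beside 3689 higher and 4631 lower of all genes. In the set, calls above 9-week swim outnumbered those below with all libraries and without libraries 1 to 5. The counts were equal without libraries 6 to 10. Choosing genes low in these 9-week swim libraries favours calls above 9-week swim, so these counts are descriptions too. Nfu_g_1_002380 and Nfu_g_1_002271, not called with all libraries, were called lower than none without libraries 6 to 10 (log2 fold changes -2.15 and -2.28, edgeR adjusted p = 0.00383 and 0.00364) and higher than 9-week swim without libraries 1 to 5 (1.27 and 1.32, adjusted p = 0.0159 and 0.0152). Without libraries 6 to 10, Nfu_g_1_000224, Nfu_g_1_017865 and Nfu_g_1_000670 were also called lower than 9-week swim (log2 fold changes -2.39, -2.18 and -0.93, edgeR adjusted p = 0.00373, 0.00582 and 6.9e-05).

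Gene length was not used in the choice. The 150 genes had a median length of 3766 bases (quartiles 2120 and 5548.5), against 3340.5 bases over all genes of at least 5 CPM, and 46.0% against 41.5% were 4000 bases or longer. Nfu_g_1_010244 was the longest at 16402 bases. It averaged 17.4 ± 3.20 CPM in 27-week swim (SD, n = 10), 17.1 ± 2.19 CPM in 9-week swim (SD, n = 5) and 24.9 ± 4.63 CPM in 9-week none (SD, n = 5) and fell in 27-week swim relative to none (log2 fold change -0.52, SE 0.13, edgeR adjusted p = 0.00324). Nfu_g_1_000670 (15168 bases) averaged 3.45 ± 1.02 CPM in 27-week swim (SD, n = 10), 4.29 ± 0.473 CPM in 9-week swim (SD, n = 5) and 6.09 ± 0.483 CPM in 9-week none (SD, n = 5) and also fell relative to none (log2 fold change -0.79, SE 0.22, edgeR adjusted p = 0.00768). Among the shortest, Nfu_g_1_010745 (348 bases) had 3.91, 5.87 and 7.22 CPM in the lowest, median and highest 27-week swim library. It had 6.16, 4.36, 2.92, 5.49 and 4.73 CPM in 9-week swim, against 7.76, 9.67, 13.9, 15.1 and 9.56 CPM in 9-week none. No 27-week library reached the none range, and the gene fell relative to none (log2 fold change -0.97, SE 0.18, edgeR adjusted p = 0.000378). Per kilobase the none mean had a median of 8.21 CPM over the 150 genes and of 5.33 CPM over all genes of at least 5 CPM. The none libraries were used in the choice, so these values are descriptions.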

How the data were processed

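Per the labels' protocols, a TruSeq RNA kit was used for muscle RNA. Tools named in the submitters' processing notes are featureCounts 1.4.6-p4, STAR 2.4.1d and bcl2fastq 1.8.4. The sources used here do not give the genome build, annotation or strand setting, so overlapping and near-identical genes cannot be told apart. The authors deposited gene counts, not normalized, and RPKM values. Library totals were 24333849 to 38571967 counts. The deposited RPKM values had been scaled by totals assigned along the rows of the table: implied gene lengths varied by a median SD of 0.000114 log2 units that way and by 0.241 with own totals, over 9307 genes. They served only to recover lengths, and the named gene lengths come from them. The lowest chi-square between libraries of a group was 23.7 per degree of freedom, so none was counted as a duplicate.

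CPM used own totals, with 0.5 added on log scales. Counts were tested in R 4.3.3 with edgeR 4.0.16 (filterByExpr with minimum count 10, TMM, robust quasi-likelihood, the 3 groups in 1 fit, Benjamini-Hochberg threshold 0.05), checked on simulated data; the common dispersion was 0.118. Alternatives used DESeq2 1.42.0 and limma-voom (limma 3.58.1), other scalings and filters, and libraries left out. Library numbers follow the sample codes and are only names. The genes and lists were chosen with earlier results of these data known. The text names genes by rule: the largest 9-week ratios, highest none means, extreme 27-week to none ratios, extreme 27-week spreads, those next to the limit and extreme lengths.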

Additional observations from a re-analysis of the deposited data

Results flagged for a closer look

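In 76 groups of 5 or 10 values of the genes named by rule and of library measures, 7 held a library far from the rest by the ratio of its gap to the range. With independent, normally distributed values about 1 group in 20 would do so, here 3.8. The CPM of genes named for extreme values, some moving together, need not follow this, so nothing is read from 7 against 3.8. Nfu_g_1_000224 had 32.6 CPM in 9-week swim library 4, with the other libraries of that group between 1.82 and 10.3 CPM, and Nfu_g_1_017865 had 80.7 CPM in the same library, with the others between 3.95 and 23.6 CPM. In 9-week swim library 1, Nfu_g_1_019856, just outside the limit of the set, had 4.07 CPM, with the others between 5.26 and 5.59 CPM. In 9-week none library 5, Nfu_g_1_021198 had 763 CPM, with the others between 142.35 and 285 CPM, and Nfu_g_1_001848 had 93.4 CPM, with the others between 24.9 and 34.6 CPM. In 9-week none library 4, Nfu_g_1_011746 had 552 CPM, with the others between 376 and 421 CPM, and Nfu_g_1_010244 had 32.9 CPM, with the others between 20.8 and 23.9 CPM.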

How the results depend on the processing

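No paired analysis was possible because the labels gave no replicate numbers. The rule was met by 199 genes, by 341 with upper-quartile scaling (93 of the 150 chosen then shared with the set), 241 with TMM scaling (101 shared), 234 with DESeq2 size factors (103 shared) and by 211 to 622 without 1 library of the 9-week groups; on TMM-scaled CPM 79.3% of the set still had 9-week groups without overlap. The median log2 ratio of 27-week swim to 9-week none was -0.47, between -0.52 and -0.43 without single libraries, -0.45 and -0.52 when 27-week libraries 1 to 5 or 6 to 10 were left out, and -0.24 and -0.74 when they were left out on TMM-scaled CPM; that of 27-week swim to 9-week swim was 0.30, between 0.23 and 0.36 without single libraries, 0.29 and 0.28 on CPM and 0.46 and 0.045 on TMM-scaled CPM without those libraries, TMM settings that were chosen after seeing the data. The 8 genes called between the 9-week groups by edgeR, a contrast that chose the genes, became 0 at an adjusted p under 0.01 (130 at an unadjusted p under 0.05), 5 without a low-count filter, 72 with DESeq2, 59 with those groups fitted alone, 81 or 96 when 27-week libraries 1 to 5 or 6 to 10 were left out, and 0 to 12 without single libraries (4, 3 and 2 without swim libraries 1 to 3, 5, 3 and 4 without none libraries 2, 4 and 5, and 0 without none library 3, where 78.7% of the set had an unadjusted p under 0.05). At an adjusted p under 0.01, 47 of 71 genes were called in 27-week swim against 9-week none and 36 of 57 against 9-week swim. Of all tested genes, 1972 were then higher and 2127 lower than none, and 1157 higher and 1767 lower than 9-week swim. Without single libraries the counts of the set were 58 to 77 and 48 to 62. All tested genes then gave 2838 to 3930 higher and 2626 to 3381 lower than none. They gave 1758 to 2909 higher and 2212 to 3123 lower than 9-week swim. The second count of the set was 92 without 27-week libraries 6 to 10, beside 3689 higher and 4631 lower of all 16469 genes tested. Of 46 pairs of a named gene and a 27-week comparison, 20 kept direction and call in all 25 alternatives and 13 changed sign in at least 1. Without 27-week libraries 1 to 5 the log2 fold change to none turned to 0.13 for Nfu_g_1_002271, 0.15 for Nfu_g_1_002380 and 0.60 for Nfu_g_1_021472 (-0.19 to 0.21 without single libraries), and that to 9-week swim to 0.12 for Nfu_g_1_000670, 0.045 for Nfu_g_1_011746 and 0.0060 for Nfu_g_1_010244 (-0.11 to 0.082 without single libraries). Without libraries 6 to 10 it turned to -0.59 to none for Nfu_g_1_021198 (-0.087 to 0.62 without single libraries), and relative to 9-week swim to -0.065 for Nfu_g_1_001532, -1.10 for Nfu_g_1_002271, -1.04 for Nfu_g_1_002380, -0.63 for Nfu_g_1_006668, -0.31 for Nfu_g_1_010667 and -0.17 for Nfu_g_1_019856. The cause was not tested. The lowest count of a gene of the set in any library was 21, so intervals from depth are not small for every gene. The number of libraries limits the precision too.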
